A study of Mus musculus with 4 samples.

Results

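The genes of the motile cilium axoneme were taken by symbol: those that begin with Dnah, Dnai, Dnaaf, Tekt, Cfap, Drc, Rsph, Spag or Spef and that held at least 5 UMIs (unique molecular identifiers, each standing for 1 captured RNA molecule) summed over 4 single-cell libraries. The files listed 86 genes with these 9 prefixes, and 84 of them met the limit, among 17831 features that met it and 21937 features in all. The limit fell in a sparse range: Tekt3, a tektin, had 8 UMIs and was just inside, the next member Spag6 had 37, and Spag11a and Spag11b had 0 and were outside. Of the 84 members, 73 were counted as parts, assembly factors or partners of the axoneme and are called the axonemal core here. Spef1l was in no list of roles and was counted among them by default. The other 11 share a prefix but were set apart as genes known from other roles or without a sure role, such as Spag9, a scaffold of JNK signalling, and Spag5, a protein of the mitotic spindle.

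The libraries came from the dissected telencephalic midline of mouse embryos, a region around the cortical hem with Cajal-Retzius cells and part of the hippocampal primordium. At each of the ages E11.5 and E14.5 there was 1 control library, genotype Lmx1aCre::Ai9, and 1 gof library, genotype Lmx1aCre::Ai9::b-cat gof; each pooled 5 male embryos at E11.5 and 3 at E14.5, and every embryo, the controls included, carried both the Cre and the reporter. Lmx1aCre acts in cells that express Lmx1a, a transcription factor of the hem and the choroid plexus, and Ai9 makes the red protein tdTomato after Cre has acted, so the b-cat gof allele (beta-catenin, labelled gain of function) concerns only part of the cells of a gof library. Ctnnb1, the gene of beta-catenin, stood at 253 and 214 counts per 1000000 UMIs (CPM) in the control and gof libraries of E11.5 and at 309 and 289 CPM in those of E14.5; its level does not check the allele, since the sources used here do not describe the allele's structure.

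After filtering, the 4 libraries held 6503, 6991, 6577 and 5258 cells, in the same order, and the median cell had 8172, 5643, 12850 and 14013 UMIs. No condition had a second library, and therefore no test was made. Intervals below are exact 95% Poisson intervals for levels and exact Clopper-Pearson intervals for shares, and they cover counting error only. A gene is called higher or lower where its CPM differed at least 2-fold and the 2 intervals were separate, and each count of such genes is set beside the percent of all 17831 features called by the same rule.

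A motile cilium beats because dynein arms slide the outer doublet microtubules of its axoneme against each other. Nexin-dynein regulatory complexes, radial spokes and a central pair of microtubules control that sliding, tektins and other inner proteins stiffen the doublets, and cytoplasmic factors assemble the arms beforehand. In cells that make many such cilia, Gmnc and Mcidas act early, Foxj1 and RFX factors then turn on axonemal genes, and Ccno and Deup1 serve the multiplication of basal bodies; in the brain, epithelial cells of the choroid plexus, which secrete cerebrospinal fluid and transthyretin (Ttr), carry tufts of cilia.

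RFX factors bind an inverted repeat called the X-box, and promoter stretches that match it are printed here because the form was common among the core. RefSeq promoter sequences (GRCm38.p6, 250 bases before to 50 after a gene's start) matched 62 of the 73 core genes by symbol. The X-box form searched, on both strands, was GT, any 2 bases, CC, any 2 or 3 bases, G, any 1 base, and AAC. It was found in 21 core genes (33.9%), against 678 of the 13804 matched features of at least 5 UMIs (4.91%) and 4.22% of all 27025 genes of the table. In 17 of the 21, a match began in the last 120 bases before the start. Among members outside the core, 1 of the 9 matched genes (11.1%) held the form. The forkhead form TGTTTAC or TGTTTGC, searched on both strands and counted apart from the X-box form even where matches overlap, was in 9 of the 62 core genes, against 7.87% of the matched features and 9.47% of all genes. A match is a description of the letters and no evidence of binding. Promoters of 1 chromosome were left out of the windows. Of the other core genes named by rule 11 held the form. In Drc3 and Rsph3b the match lay almost wholly or wholly after the start, and these are not printed. The other 9 windows run 5′ to 3′ on the strand of the gene, with the matching bases in capitals:
Dnah9 (chr11:66168601-66168653, minus strand): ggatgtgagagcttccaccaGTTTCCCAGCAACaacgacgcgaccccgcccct
Dnaic1 (chr4:41569755-41569807, plus strand): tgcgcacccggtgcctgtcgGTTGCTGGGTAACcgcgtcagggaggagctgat
Dnaic2 (chr11:114727366-114727418, plus strand): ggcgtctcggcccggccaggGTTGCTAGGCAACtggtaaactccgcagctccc
Dnaaf2 (chr12:69198413-69198466, minus strand): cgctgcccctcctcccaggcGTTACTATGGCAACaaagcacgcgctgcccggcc
Cfap298 (chr16:90935004-90935057, minus strand): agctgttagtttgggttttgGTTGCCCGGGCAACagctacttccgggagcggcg
Cfap206 (chr4:34730196-34730249, minus strand): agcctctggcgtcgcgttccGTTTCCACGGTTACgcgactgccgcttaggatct
Cfap44 (chr16:44394752-44394805, plus strand): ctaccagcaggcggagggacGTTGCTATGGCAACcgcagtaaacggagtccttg
Dnah17 (chr11:118129345-118129398, minus strand): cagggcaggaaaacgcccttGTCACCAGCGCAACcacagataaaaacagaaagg
Tekt2 (chr4:126325685-126325737, minus strand): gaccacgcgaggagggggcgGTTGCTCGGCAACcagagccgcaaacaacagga
Of all 11 genes, Dnah9, Dnaic1, Cfap206, Cfap44 and Drc3 were called lower in the E14.5 gof library, and Dnaaf2, Tekt2, Cfap298, Dnaic2, Dnah17 and Rsph3b were not. Of all 84 members 43 were lower there, and of all features 4.82%. A link between the form and these calls was not tested.

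The core was described in 4 classes of cells, assigned in order. Ttr-high cells had Ttr at 0.5% or more of their UMIs, Trp73-positive cells had at least 1 UMI of Trp73 (a p53-family factor of Cajal-Retzius and multiciliated cells), other tdTomato-positive cells had at least 2 UMIs of the reporter, and the rest had none of these. Ttr-high cells numbered 102 and 32 in the E11.5 control and gof libraries and 182 and 68 at E14.5. At E14.5 that was 2.77% (2.38 to 3.19) of the control cells and 1.29% (1.01 to 1.64) of the gof cells. Trp73-positive cells numbered 390 and 344 at E11.5 and 543 and 61 at E14.5, the last pair being 8.26% (7.60 to 8.95) and 1.16% (0.889 to 1.49) of cells. Most of the 10 choroid plexus markers listed were present in Ttr-high cells: Folr1, a folate receptor, stood at 87.8, 68.5, 440 and 230 CPM there, and Kcne2, a potassium channel subunit of the mature epithelium, at 15.6, 18, 717 and 33.5 CPM, in the order of the libraries above. At E11.5, however, Aqp1 and Kl had 0 UMIs in the Ttr-high cells of both libraries and Enpp2 had 3 and 4 UMIs, and Kl had 0 UMIs in those of the E14.5 gof library. The 10 markers, Ttr included, summed to 90636 CPM in the Ttr-high cells of the E14.5 control and to 30807 CPM in those of the E14.5 gof library. Ttr also defines the class, so these sums do not describe the other markers on their own. The 5 erythroid markers, of red blood cells, summed to 5254 CPM in the Ttr-high cells of the E11.5 gof library and to between 47.4 and 145 CPM in those of the other 3. Trp73-positive cells had Reln, the signal secreted by Cajal-Retzius cells, at 113, 130, 2651 and 787 CPM.

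Core transcripts were concentrated in Ttr-high cells, most of all in the E14.5 control. There the 73 core genes summed to 6114 CPM in Ttr-high cells, 831 CPM in Trp73-positive cells, 355 CPM in other tdTomato-positive cells and 232 CPM in the rest. In the E14.5 gof library the same sums were 1696, 362, 270 and 198 CPM. In the E11.5 control they were 865, 491, 291 and 212 CPM, and in the E11.5 gof library 732, 567, 287 and 251 CPM. The order of the 4 classes was thus the same in all 4 libraries. The ratio of Ttr-high cells to the rest was 4.07 and 2.91 at E11.5 and 26.4 and 8.57 at E14.5, for control and gof. Ttr-high cells held 44.3% of all core UMIs of the E14.5 control while being 2.77% of its cells; they held 14.7% in the E14.5 gof library, and 5.59% and 1.54% at E11.5.

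**Figure D1:**
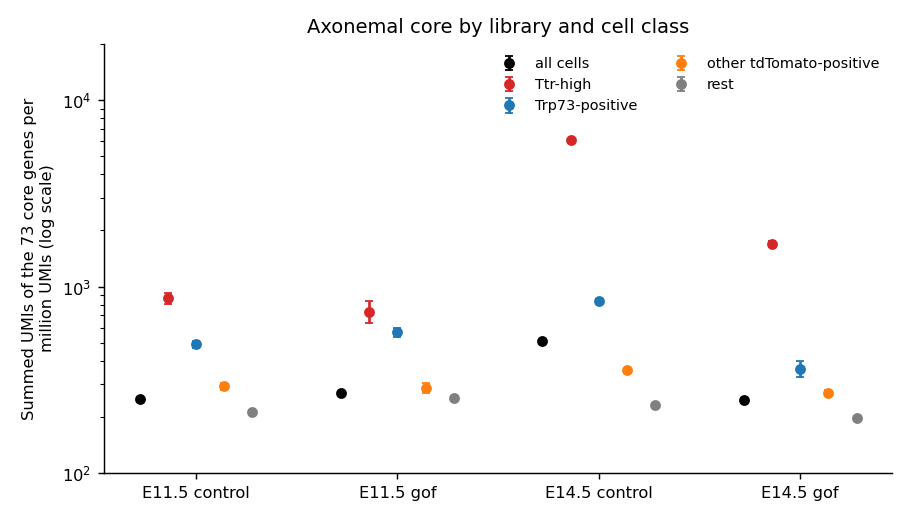
Summed CPM of the 73 core genes (log scale) in all cells and in each class of cells, for each library; points are the levels and bars the exact 95% Poisson intervals. The Ttr-high cells of the E14.5 control stand at 6114 CPM, above the 1696 CPM of the same class in the E14.5 gof library and the 865 and 732 CPM at E11.5.

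Gene by gene, 70 of the 84 members were higher in the Ttr-high cells of the E14.5 control than in the rest of the same library, where 15.2% of all features were, and 2 were lower, where 13.3% were. The median log2 ratio was 5.00 over the members with a ratio and 0.02 over all features. In the E14.5 gof library 64 members were higher (12.1% of features) and 2 lower (10.1%), with a median log2 ratio of 3.36. In the E11.5 control 45 members were higher (5.34% of features) and 0 lower (3.48%), with a median of 2.20; in the E11.5 gof library, where only 32 cells stood in the class, 24 were higher (4% of features) and 1 lower (1.62%).

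Among the dynein heavy chains, the motors of the arms, 12 of 15 were higher in Ttr-high cells of the E14.5 control. Dnah6, an inner arm motor on chromosome 6 (GRCm38 73017606 to 73221651), stood at 322 CPM there against 0.885 CPM in the rest, and at 63.1 against 0.935 CPM in the E14.5 gof library. Dnah9, an outer arm motor, stood at 217 against 6.59 CPM in the control and 35.2 against 3.66 CPM in the gof library. Dnah17, a heavy chain known from sperm flagella, stood at 1.93 against 3.25 CPM, Dnah14 at 0.827 against 1.41 CPM and Dnah8 at 2.48 against 1.37 CPM in the E14.5 control, so these 3 did not share the pattern. Dnah7a, Dnah7b and Dnah7c are close copies of each other, and how their shared reads were split is uncertain. Both intermediate chains, which dock the arms, were higher: Dnaic1 at 48.0 against 0.740 CPM and Dnaic2 at 39.1 against 0.977 CPM.

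The cytoplasmic factors that assemble the arms had the smallest ratios of the core roles, with a median log2 ratio of 2.40 over 8 genes. Cfap298, the core gene with the most UMIs, stood at 287 CPM in Ttr-high cells of the E14.5 control and 40.9 CPM in the rest. Cfap300 stood at 38.9 against 12.3 CPM. Dnaaf2 was the only one of the 8 that was not called, at 5.51 against 4.19 CPM. Dnaaf1 was instead scarce outside Ttr-high cells, at 12.4 against 0.132 CPM.

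All 3 genes of the nexin-dynein regulatory complex were higher in Ttr-high cells of the E14.5 control. Drc7 stood at 53.2 against 0.0924 CPM, Drc3 at 129 against 2.59 CPM and Drc1 at 68.6 against 2.14 CPM. Of the 10 radial spoke genes 9 were higher. Rsph1, a spoke head protein, stood at 202 against 0.475 CPM and Cfap206, at the base of a spoke, at 98.7 against 0.185 CPM. Rsph9 and Rsph3b, the spoke genes with the most UMIs, had smaller differences, at 112 against 7.49 CPM and 32.8 against 9.68 CPM. Rsph6a, a testis paralog of Rsph4a, was not called, at 0.276 against 0.370 CPM. Rsph3a and Rsph3b are near copies, so their separate levels are uncertain.

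Central pair genes were higher in 12 of 13. Cfap65, with one of the 5 highest ratios, stood at 67.5 against 0.119 CPM, and Spef2, a projection protein on chromosome 15 (9578193 to 9748868), stood at 304 against 0.792 CPM. Cfap54 stood at 348 against 7.84 CPM. Cfap46, which had the most UMIs of the group, stood at 89.0 against 18.2 CPM, so its UMIs lay mostly outside Ttr-high cells. Spag6 had 0 UMIs in Ttr-high cells; its near copy Spag6l stood at 282 against 2.97 CPM, and reads may be split between the pair. All 11 tektins and inner proteins with a ratio were higher, with the largest median log2 ratio of the roles, 6.94. Cfap52 stood at 90.4 against 0.225 CPM, Tekt1 at 128 against 3.79 CPM and Cfap77 at 42.2 against 5.14 CPM. Tekt3 had too few UMIs for a ratio. All 10 remaining core genes were higher, among them Cfap43 at 268 against 2.73 CPM and Cfap44 at 221 against 1.18 CPM, a pair of the complex that tethers an inner arm dynein.

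**Figure D2:**
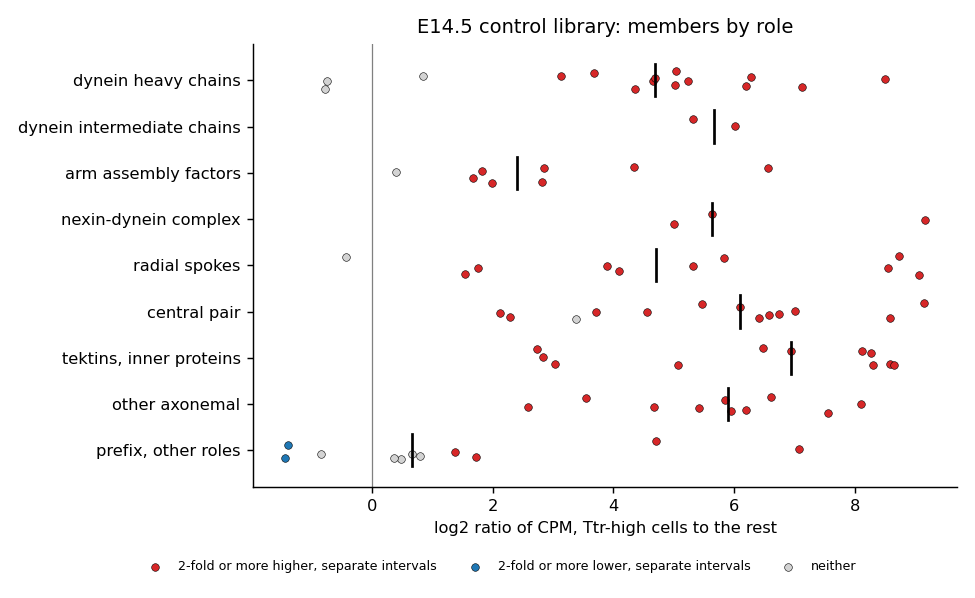
Log2 ratio of CPM in Ttr-high cells to CPM in the rest of the E14.5 control library, 1 point per member with a ratio, by role; bars mark role medians and colours the call. Tektins and inner proteins sit highest, with a median of 6.94, assembly factors lower, at 2.40, and the members known from other roles lowest, at 0.66.

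The members outside the core mostly did not follow it, though the split was made with earlier results of these data known. Spag9 had the most UMIs of all members and was lower in Ttr-high cells of the E14.5 control, at 131 against 345 CPM. Spag4, a nuclear envelope protein, was lower as well, at 1.93 against 5.23 CPM, and Spag5 stood at 16.3 against 29.1 CPM without being called. Cfap20, a protein of both motile and primary cilia, stood at 232 against 167 CPM. Spag7 stood at 60.1 against 46.8 CPM. Of these 11, 4 were higher, and 2 of the 4 had core-like sizes: Cfap299 at 278 against 2.07 CPM and Cfap97d2 at 27.6 against 1.06 CPM. These last 2 are named because of their values, outside the rule for named genes.

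Within the Ttr-high class cells differed widely. The core made up from 0 to 21133 CPM of a cell in the E14.5 control, with a median of 4001 CPM and quartiles of 1057 and 8042 CPM, and the median cell had UMIs of 26 core genes. In the E14.5 gof library the cells ranged from 131 to 10192 CPM, with a median of 858 CPM, quartiles of 485 and 1588 CPM and a lower number of core genes per cell, although their median depth was higher, at 18021 UMIs against 11924 UMIs. The 2 sets of cells overlapped, and the middle of the gof cells lay below the first quartile of the control cells. After thinning each cell to 3000 UMIs, 77.2% (70.4 to 83.1) of the control Ttr-high cells and 50.7% (38.2 to 63.2) of the gof cells had at least 3 core genes, with 2 and 1 shallower cells left out. Without thinning these shares were 94.0% and 98.5%. In the rest, at median depths of 12827 and 13612 UMIs, the thinned shares were 3.00% (2.55 to 3.52) and 1.98% (1.57 to 2.46) and these are the background for the shares in Ttr-high cells.

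Core level rose from bin to bin of the Ttr share, and not steadily from cell to cell. Among Ttr-high cells of the E14.5 control, the one with the highest core level, 21133 CPM, had Ttr at 4.03%. The one with the highest Ttr share stood at 7035 CPM. Ttr UMIs also count in the total by which a CPM divides. In the E14.5 control, cells with no Ttr UMI stood at 288 CPM, cells above 0 and under 0.05% at 296 CPM, cells from 0.05 to 0.5% at 409 CPM, the 75 cells from 0.5 to 5% at 3164 CPM and the 107 cells at 5% or more at 7508 CPM. In the E14.5 gof library the same bins stood at 211, 239, 364, 1140 (54 cells) and 3936 CPM (14 cells). Each gof bin was below the control bin, with separate intervals in all bins but that from 0.05 to 0.5%, whose intervals ran from 378 to 442 CPM and from 326 to 405 CPM. Cells were not matched for Ttr share inside a bin, and gof cells above 0.5% lay more toward the lower end of their bins. The highest share was 27.8% in the control and 13.2% in the gof library. The part of this in the lower gof bins was not tested. At E11.5 no kept cell had Ttr at 5% or more, and cells from 0.5 to 5% stood at 865 CPM in the control and 732 CPM in the gof library, with overlapping intervals. Markers differed between the 2 Ttr-high sets of E14.5 beside the core: the 6 radial glia markers summed to 893 CPM in control cells and 1519 CPM in gof cells, and Kcne2 to 717 and 33.5 CPM; their part in the difference of the core was not tested.

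**Figure D3:**
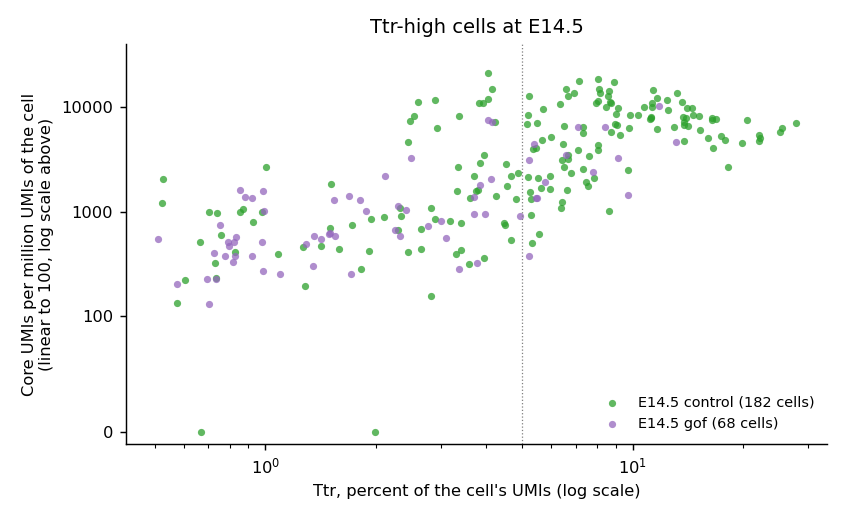
Ttr-high cells of the 2 E14.5 libraries: core CPM of each cell (linear to 100, log scale above) against the percent of its UMIs from Ttr (log scale), 1 point per cell, with a dotted line at 5%. Of the control cells 107 lie at or beyond 5% and of the gof cells 14, and in both ranges the gof cells sum to a lower core level. Cells are not matched for Ttr share within a range.

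Foxj1 marked the Ttr-high cells with more core RNA. In the E14.5 control 131 of the 182 Ttr-high cells had a Foxj1 UMI and stood at 6856 CPM of the core, and the 51 without one at 1289 CPM. In the gof library the 45 cells with a Foxj1 UMI stood at 1966 CPM and the 23 without at 818 CPM. The control cells without a Foxj1 UMI were shallower, with a median of 8522 UMIs against 14945 UMIs for those with one. In the rest of the E14.5 control 7.09% of cells had a Foxj1 UMI and stood at 263 CPM against 229 CPM for those without, and in the gof library at 223 against 196 CPM. In the rest at E11.5 the same pairs were further apart, 367 against 203 CPM in the control and 514 against 240 CPM in the gof library.

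Trp73-positive cells had the next highest core level in every library. In the E14.5 control 45 of 84 members were higher in them than in the rest (8.4% of features) and 2 were lower (5.11%), and the median log2 ratio was 1.58. In the E11.5 control 36 were higher (5.1%) and 0 lower (1.08%), in the E11.5 gof library 27 higher (7.63%) and 2 lower (2.96%), and in the E14.5 gof library, where the class had 61 cells, 15 higher (6.57%) and 0 lower (2.5%). The genes with the largest ratios in Ttr-high cells were also high here in the E14.5 control: Cfap52 had a log2 ratio of 6.15, Cfap65 of 5.75, Cfap206 of 5.65, Drc7 of 5.30 and Rsph1 of 5.25. Both ratios divide by the same rest, and the choice favours genes scarce there, so large values are in part built in. Dnah12, a heavy chain, was one of the 2 lower members, with a log2 ratio of -2.17, and Spag5, with -1.16, was the other. The 206 UMIs of Dnah12 in that library lay in 61 cells, with 38 UMIs in 1 cell, a clumping that the intervals do not cover. The core was not evenly spread over this class in the E14.5 control: the 51 Trp73-positive cells without a Reln UMI stood at 280 CPM, the 66 with 1 to 4 Reln UMIs at 1197 CPM, the 133 with 5 to 19 at 1176 CPM and the 293 with 20 or more at 707 CPM. The 243 Trp73-positive cells without any Ttr UMI stood at 813 CPM, close to the 831 CPM of the class. In the E14.5 gof library the 57 such cells stood at 356 CPM.

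Other tdTomato-positive cells stood above the rest by less than the Ttr-high and Trp73-positive cells of the same library did. In the E14.5 control 20 members were higher (5.82% of features) and 1 lower (1.22%), with a core ratio of 1.53, and in the E14.5 gof library 20 were higher (8.32%) and 0 lower (2.18%), with a core ratio of 1.36. At E11.5 14 were higher in the control (2.45%) and 0 lower (2.37%), and in the gof library 4 were higher (2.79%) and 4 lower (3%), with core ratios of 1.37 and 1.14.

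Between the whole libraries of E14.5, members were lower in the gof library and none was higher. The core summed to 510 CPM in the control and 247 CPM in the gof library. Of the 84 members 43 were lower, where 4.82% of all features were, and 0 were higher, where 3.9% of features were; the median log2 ratio was -1.09 over members and -0.08 over all features. In a whole library, fewer cells of a type and less RNA per cell cannot be told apart. By role, 10 of the 12 tektins and inner proteins were lower, 9 of 13 central pair genes, all 3 nexin-dynein genes, 7 of 15 heavy chains, 5 of 10 spoke genes, 6 of the 10 remaining core genes, 1 of 2 intermediate chains and 1 of 8 assembly factors. Outside the core 1 of 11 was lower, and that was Cfap299, at 12.8 CPM in the control and 2.81 CPM in the gof library.

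The 5 members with the lowest gof to control ratios at E14.5, among those of at least 50 UMIs in the 2 libraries, came from the central pair, the doublets, the nexin-dynein complex and the spokes. Cfap65, on chromosome 1 (74902071 to 74935599), stood at 3.10 CPM in the E14.5 control and 0.366 CPM in the gof library, a log2 ratio of -3.08. Cfap52 stood at 4.92 and 0.598 CPM, a log2 ratio of -3.04. Drc7 stood at 2.37 and 0.330 CPM, Spef2 at 14 and 1.95 CPM and Cfap206 at 4.64 and 0.659 CPM, with log2 ratios of -2.85, -2.85 and -2.81. At E11.5 the same 5 genes stood at 0.412, 1.41, 0.309, 3.18 and 1.16 CPM in the control and 0.225, 1.04, 0.490, 2.49 and 1.08 CPM in the gof library. The E14.5 control was the highest library for each of them, which their choice by a low E14.5 ratio favours. At the other end, 5 members kept similar or higher levels. Spag7 stood at 47.7 and 60.5 CPM in the E14.5 control and gof libraries, Dnaaf2 at 4.31 and 5.36 CPM, Cfap100 at 1.07 and 1.26 CPM, Spag5 at 26.8 and 27.4 CPM and Tekt2 at 5.28 and 5.31 CPM, and none of these was called.

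The count of lower members shrank as the Ttr-high and Trp73-positive cells were left out. Without Ttr-high cells 20 of the 84 members were lower (3.61% of features), all of them among the 43, and the core stood at 295 CPM in the control and 215 CPM in the gof library. Without Ttr-high and Trp73-positive cells 4 of the 84 were lower, a share near the 3.03% of features, and the core stood at 248 and 213 CPM. Only 1 was higher, where 3.9% of features were higher with all kept cells. These few genes are named as a description and not as a result about the members. The 4 were Dnah9 at 8.21 and 3.63 CPM, Drc1 at 2.53 and 0.922 CPM, Dnah14 at 1.47 and 0.607 CPM and Tekt5 at 0.770 and 0.126 CPM, and the higher one was Cfap45 at 0.506 and 1.12 CPM, in control and gof.

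**Figure D4:**
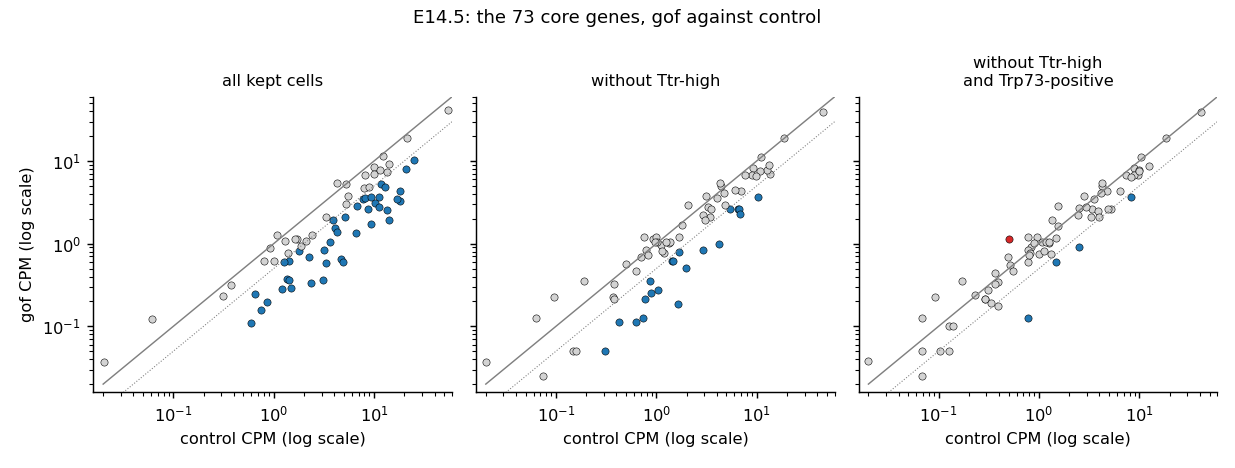
CPM of the 73 core genes in the E14.5 gof library against the E14.5 control library (log scales), in all kept cells, without Ttr-high cells and without Ttr-high and Trp73-positive cells; blue points were called lower, red higher and grey neither, the solid line marks equal levels, the dotted line 2-fold, and CPM values under 0.02 are drawn at 0.02. The core sums were 510 and 247 CPM in all kept cells and 248 and 213 CPM without both classes.

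Inside the Ttr-high class of E14.5 the members were lower too. There 55 of 84 were lower in gof cells (6.75% of features) and 0 were higher (3.94%), with a median log2 ratio of -1.65 against -0.04 over all features. All 12 central pair genes with a ratio were lower, 10 of 15 heavy chains, both intermediate chains, all 3 nexin-dynein genes, 6 of 10 spoke genes, 9 of 12 tektins and inner proteins, 8 of the 10 remaining core genes and 3 of 8 assembly factors. Cfap47, a central pair gene, stood at 319 CPM in control cells and at 32.4 CPM in gof cells. Dnah6 stood at 322 and 63.1 CPM, Rsph1 at 202 and 56.8 CPM, Tekt1 at 128 and 50.6 CPM and Cfap298 at 287 and 144 CPM, the last not called. Spag9 stood at 131 and 102 CPM and Cfap20 at 232 and 140 CPM, without a call. In Trp73-positive cells 18 members were lower (3.02% of features) and 0 higher (2.79%). In other tdTomato-positive cells 9 were lower (5.38%) and 0 higher (4.8%), and in the rest 6 were lower (3.27%) and 0 higher (3.1%). The Ttr-high cells positive for the reporter, 121 in the control and 61 in the gof library, stood at 6374 and 1713 CPM of the core, and those with fewer than 2 tdTomato UMIs, 61 and 7 cells, at 4729 and 1218 CPM.

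At E11.5 the core did not differ much between the genotypes as a sum, at 249 CPM in the control and 269 CPM in the gof library. Of the 84 members 10 were higher in the gof library, where 6.98% of features were, and 0 were lower, where 0.51% were; the median log2 ratio was -0.06 over members and 0.00 over all features. Among members of at least 50 UMIs in the 2 libraries, the highest ratios were those of Cfap221 (0.441 and 3.09 CPM in control and gof), Dnah12 (0.677 and 3.21 CPM), Dnaic2 (1.43 and 6.64 CPM), Rsph6a (0.441 and 1.92 CPM) and Dnah8 (1.19 and 3.70 CPM). The lowest among them were those of Cfap53 (1.43 and 0.776 CPM), Cfap47 (2.24 and 1.43 CPM), Spag4 (1.63 and 1.06 CPM), Tekt1 (6.08 and 4.03 CPM) and Dnaaf4 (1.28 and 0.879 CPM), none of which was called. In Ttr-high cells 0 members were higher (0.566% of features) and 0 lower (0.454%), in other tdTomato-positive cells likewise 0 (2.29%) and 0 (0.763%), in Trp73-positive cells 3 higher (2.12%) and 0 lower (1.19%), and in the rest 9 higher (6.59%) and 0 lower (0.482%). In the rest the 6 mesenchyme markers summed to 376 CPM in the control and 879 CPM in the gof library; cells of the rest with at least 10 UMIs of mesenchyme, endothelium, mural and microglia markers stood at 189 and 209 CPM of the core, below the 216 and 262 CPM of the other cells of the rest.

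A part of that E11.5 difference lay in single cells. A single-gene cell is defined here as one with at least 10 UMIs of 1 core gene and at most 2 UMIs of all other core genes together, a definition made after the values had been seen. The E11.5 gof library had 52 such cells, of 18 genes, which held 1265 UMIs or 9.62% of its core UMIs, while the other libraries had 8, 2 and 3, which held 0.686%, 0.0559% and 0.178%. In the E11.5 gof library 51 of the 52 cells were in the rest. Cfap221 had 50 of its 151 UMIs in 1 cell, Dnah8 60 of 181, Dnah12 46 of 157 and Dnaic2 72 of 325. Rsph6a differed, with at most 4 of its 94 UMIs in 1 cell and UMIs in 70 cells. Without the single-gene cells of both libraries 5 of the 84 members were higher, namely Rsph6a, Cfap57, Dnaic2, Cfap221 and Dnah7c, and the core stood at 247 and 244 CPM in control and gof. With all cells 6.98% of features were higher, so this count is not read as a result about the members. Entries of that size were also counted whatever the gene's role, among 7797 features under 10 CPM in every library, core genes under that limit included. Entries of 10 or more UMIs numbered 86.4 per 1000 cells in the E11.5 control, 284 in the E11.5 gof library, and 351 and 346 at E14.5. This count set no limit on the core UMIs of the cell, so it is no count of single-gene cells.

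**Figure D5:**
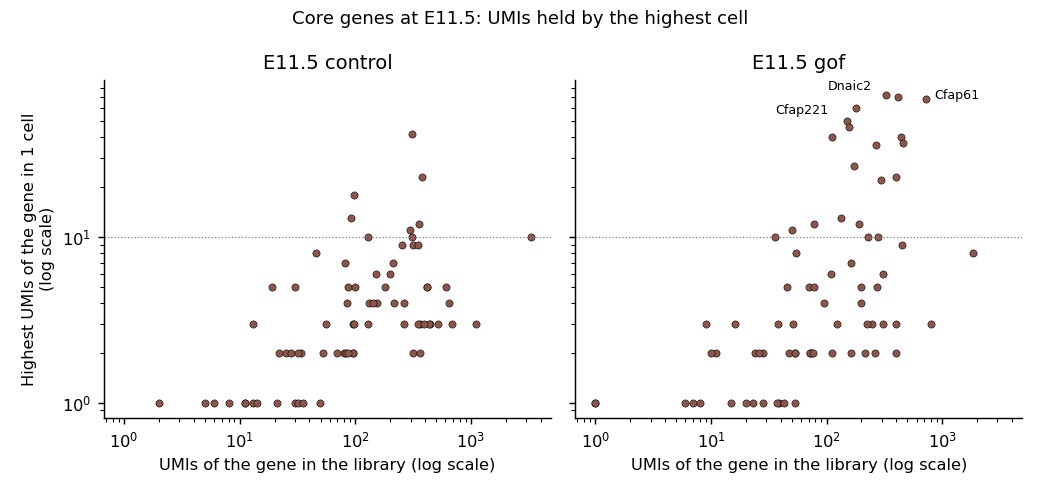
Highest number of UMIs in 1 cell against the UMIs in the library (log scales), 1 point per core gene with a UMI, for the 2 E11.5 libraries, with a dotted line at 10 UMIs. In the gof library Dnaic2 reaches 72 UMIs in 1 cell, Cfap61 68 and Cfap221 50.

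The core summed to 249 CPM at E11.5 and 510 CPM at E14.5 in the controls, and to 269 and 247 CPM in the gof libraries. Each genotype's 2 libraries differ in age and in the number of embryos pooled. In the controls 46 members were higher at E14.5 (27.9% of features) and 1 was lower (5.97%), with a median log2 ratio of 1.20 against 0.58 over all features. In the gof libraries 5 were higher (23.2%) and 10 lower (9.74%), with a median of -0.04 against 0.44. Spag6l stood at 4.38 CPM in the E11.5 control and 16.9 CPM in the E14.5 control, and at 3.90 and 3.45 CPM in the gof libraries. Dnah9 stood at 1.91 and 17.9 CPM in the controls and 1.47 and 4.36 CPM in the gof libraries, and Rsph1 at 5.12 and 9.36 CPM in the controls and 4.66 and 1.72 CPM in the gof libraries.

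Of 11 listed regulators of multiciliated cells, 7 were lower in the E14.5 gof library as well, where 4.82% of features were. In the whole E14.5 libraries Foxj1 stood at 22.6 CPM in the control and 6.09 CPM in the gof library, Gmnc at 44.2 and 12.1 CPM, Mcidas at 9.96 and 0.671 CPM, Ccno at 8.02 and 0.610 CPM and Deup1 at 7.87 and 1.27 CPM. Trp73, which also defined a class of cells, stood at 25.5 and 2.08 CPM. Rfx2 stood at 14.3 and 15.3 CPM and Rfx3 at 211 and 180 CPM, without a call. At E11.5 Foxj1 stood at 12.7 and 11.3 CPM and Gmnc at 27.8 and 22 CPM in control and gof, and Mcidas, at 8.05 and 3.92 CPM, was lower. The early regulators were not placed like the core: in the E14.5 control Mcidas stood at 84.1 CPM in Ttr-high and 83.3 CPM in Trp73-positive cells and Gmnc at 322 and 333 CPM, with overlapping intervals, while Deup1 stood at 183 and 11.4 CPM and Foxj1 at 314 and 68.6 CPM. In Ttr-high cells of the E14.5 gof library Gmnc stood at 14.2 CPM, Foxj1 at 118 CPM and Rfx3 at 263 CPM, the last against 761 CPM in the control.

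Axonemal genes with other names followed the members. Of 40 listed with at least 5 UMIs, 26 were lower in the E14.5 gof library (4.82% of features) and 0 higher (3.9%), with a median log2 ratio of -1.41, and 34 were lower in Ttr-high cells (6.75%). Of 28 genes of intraflagellar transport and the primary cilium, which non-motile cilia use too, 1 was lower in the whole library, a share near the 4.82% of all features, and 8 in Ttr-high cells, against 6.75% of features, with median log2 ratios of -0.37 and -0.61.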

How the data were processed

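Single-cell RNA was measured in 4 libraries (10x Chromium 3' kit, v3.1; about 14400 cells loaded each), per the labels. The authors deposited raw UMI counts per gene and barcode; the submitters' processing notes name Cell Ranger 7.1.0 and mm10. The annotation, and whether reads in introns counted, are not given in the sources used here. No barcode had under 500 UMIs. Library totals were 78732126, 59594082, 113821989 and 93988703 UMIs in the order of the report. Series text gives the ages E11.5 and E14.5, sample titles E11 and E14.

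Kept cells had 1000 genes or more and no more than 10% of UMIs from mitochondrial genes. The top Scrublet scores were taken as doublets and left out, 0.8% per 1000 barcodes, by 1 rule in all libraries (459, 602, 492 and 314 barcodes); Scrublet's own limit marked 2, 2, 309 and 348. Between 12 and 18 barcode sequences were shared by pairs of libraries. Counts were summed by library and cell class and scaled to CPM with Python 3.11, numpy and scipy. For a ratio, 0 was read as 3 counts. The rule of calls was tried on simulated Poisson counts. These hold no spread between cells or libraries, so the trial does not cover UMIs gathered in single cells. Members and lists were chosen with earlier results of these data known. Text names the 2 members of each role with most UMIs, the 5 highest and 5 lowest ratios among members of at least 50 UMIs in the libraries compared, and preset regulators and markers. Gene positions are from GENCODE M21 (GRCm38), promoters from RefSeq. Alternatives are listed at the end.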

Additional observations from a re-analysis of the deposited data

Results flagged for a closer look

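3 members were called in opposite directions at the 2 ages, gof against control. Of all features 6.98% were higher at E11.5 and 4.82% were lower at E14.5. The share of features called in both ways was not counted, so the 3 are not read as a result about the members. The difference between ages was not tested, since each group is 1 library. Cfap221, a central pair gene, had a log2 ratio of 2.81 at the earlier age and -1.83 at the later. Cfap61, a radial spoke gene, had 1.49 and -1.18, and Cfap43 had 1.20 and -1.41. At E11.5 the highest single cell of the gof library held 50 of 151 UMIs of Cfap221, 68 of 719 of Cfap61 and 22 of 298 of Cfap43. Without single-gene cells the E11.5 log2 ratios were 1.33 for Cfap221, 0.95 for Cfap61 and 0.81 for Cfap43, and the latter 2 were no longer called.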

How the results depend on the processing

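Depth limits the rare members: with 32 Ttr-high cells at E11.5 gof and 61 Trp73-positive cells at E14.5 gof, a gene without a call there was not shown to be equal. With 1 library a group, no alternative tests the conditions. No paired analysis was possible because the labels give no replicate numbers and each group is 1 library. Of 220 values recomputed for the counts, sums, ratios and shares, 147 stayed within their interval or 1.5 times their count; 101 of 102 core ratios stayed on the same side of 1, the exception being 0.932 for other tdTomato-positive cells of E11.5 gof with tdTomato at 5 or more UMIs. Alternatives that leave out cells were chosen after seeing the data.

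The count of lower members at E11.5 was 3 with a fold of 1.5, and that of higher members 5 without single-gene cells. The shares of features under these settings are not printed, so these counts are not read as results about the members. For lower members at E14.5 the shares are given above. At E14.5 lower members numbered 20 without Ttr-high cells and 4 without Ttr-high and Trp73-positive cells, where 1 was higher. There Cfap43 and Cfap44 reversed, with log2 ratios of 0.40 and 0.51, and Cfap43 stood at 0.27 without Ttr-high cells.

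The core sum in stricter cells (2000 genes or more, no more than 5% mitochondrial UMIs) was 242 (E11.5 control), 262 (E11.5 gof) and 241 CPM (E14.5 gof); without Ttr-high cells it was 239 (E11.5 control), 295 (E14.5 control) and 215 CPM (E14.5 gof), and without single-gene cells 244 CPM (E11.5 gof). In the E14.5 control it was 501 CPM with doublets kept and 498 CPM with all barcodes.

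In Ttr-high cells the core was 5770, 6240, 5720, 5760 and 6460 CPM in the E14.5 control and 1580, 1570, 1580, 1530 and 2310 CPM in E14.5 gof, with doublets kept, stricter cells, all barcodes, Ttr at 0.25% and Ttr at 1%; the ratios to the rest were 24.8, 27.1, 24.6, 24.8 and 27.9, and 7.97, 8, 8.10, 7.75 and 11.7. It was 974 CPM, a ratio of 4.52, in the E11.5 control with Ttr at 1%, and the E14.5 control ratio was 25.6 with tdTomato at 5 UMIs.

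For Trp73-positive cells the ratio was 2.48, 2.69, 4.02 and 2.36 in the 4 libraries with Trp73 at 2 UMIs. It was 1.98 (E11.5 control) and 1.75 (E11.5 gof) with stricter cells, 2.08 (E11.5 gof) and 3.23 (E14.5 control) with doublets kept, and 2.09 and 3.24 with all barcodes. In the E11.5 control it was 2.16 with Ttr at 0.25% and 2.52 in cells without a Ttr UMI; in the E14.5 control 3.47 with tdTomato at 5 UMIs. In cells with 20 or more Reln UMIs it was 3.05 (E14.5 control) and 1.37 (E14.5 gof). For other tdTomato-positive cells it was 1.27 and 1.71 (E14.5 control) and 1.22 and 1.45 (E14.5 gof) with tdTomato at 1 and 5 UMIs, 1.47 in the E14.5 control with doublets kept and with all barcodes, and 1.45 in the E11.5 control with Ttr at 1%.

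The share of all cells with at least 3 core genes, thinned to 3000 UMIs, was 5.11%, 4.34%, 8.42% and 3.22% in the 4 libraries. It was 15.9%, 13.9%, 20.8% and 13.6% for 2 genes, 29.7%, 16.9%, 55.5% and 47.4% without thinning, 9.11%, 8.97%, 16.1% and 8.44% thinned to 5000 UMIs, and 4.01% in the E11.5 control with stricter cells.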
